A study of Mus musculus with 8 samples.

Results

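The array used here carries, beside its probes for named transcripts, probes whose only name is a stretch of a chromosome in the mm9 build of the mouse genome, such as chr12:88216447-88224965. Of 55681 noncontrol probes, 16194 were named this way. The 577 of them on chromosome X were left out, which left 15617 on the autosomes, placed in 3390 intervals. Members were chosen by measured signal: a probe needed a signal flagged as well above background on 3 or more of the 8 arrays, counted without regard to group. This left 5664 probes in 2186 intervals, out of 30348 probes of all kinds tested by the same rule. The intervals were 67 to 533972 bases long, with a median of 10700, and had a median of 2 and at most 18 tested probes each. Of the 2186 intervals, 1162 overlapped another, and probes of 1 interval or of overlapping intervals share their source. All but 13 of the 15617 names end in F or R; the sources used here do not say what the letters stand for, and they are kept below as a suffix. Which genes overlap or neighbour the intervals was not analysed here.

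Large noncoding RNAs are transcripts without a long open reading frame. Many are spliced and polyadenylated like mRNAs, lie between or across genes, are kept at lower levels than mRNAs and differ sharply between cell types. Unstable noncoding transcripts are cleared in the nucleus by the RNA exosome with the help of adaptor complexes. CAF-1 (chromatin assembly factor 1) is the histone chaperone that places histones H3 and H4 on newly replicated DNA. P150, encoded by Chaf1a, is its large subunit, P60, encoded by Chaf1b, its middle subunit, and Rbbp4 its small subunit.

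RNA was measured in mouse embryos made by in vitro fertilisation, injected with siRNA as 1-cell embryos, cultured in KSOM medium and collected as morulae at embryonic day 3.0. Embryos injected with control siRNA (siControl) gave 3 single-colour arrays and embryos injected with siRNA against P150 (P150KD) gave 5, each with RNA of 10 pooled embryos. The labels give no strain, and they do not say whether arrays of a group hold separate collections, so the p-values rest on the scatter among these arrays, which may be technical. An equal mass of amplified RNA was labelled for each array, so levels are relative; fewer cells making a transcript and less of it per cell cannot be told apart.

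The share of spots well above background ran from 50.1% to 56.0% over the arrays, and that of interval spots from 30.0% to 36.3%. No spot was saturated. The precision of every value is limited by how few arrays there are. Level below means log2 processed signal minus the 75th percentile of that array, so that 0 is the 75th percentile. Chaf1a, the target of the siRNA, had levels of 2.40, 2.09 and 2.27 on siControl replicates 1 to 3 and of -1.47, 0.52, -0.48, -1.45 and -0.23 on P150KD replicates 1 to 5, a log2 fold change of -2.88 ± 0.48 (SE; limma adjusted p = 0.0107, and 0.0509 with the slide columns, described below, as a block). All 10 morula markers were above background on every array. All 10 were lower in P150KD, with a median log2 fold change of -0.54, but 0.22 with 6 higher under the housekeeping scaling described below. Sox2 (-2.91), Tead4 (-0.87) and Gata3 (-1.75) passed the test, Gata3 alone also with the block. Of 6 leukocyte markers, Cd74, Coro1a and Srgn were higher in P150KD (log2 2.31, 2.67 and 1.97), Cd52 was at -1.56 (adjusted p = 0.367), and Ptprc and Lyz2 were above background on no array. The summed leukocyte level, in multiples of the 75th percentile, was 1.16 to 1.73 on the siControl and 4.57 to 9.93 on the P150KD arrays; its part in the results below was not tested. With the block, limma called none of the leukocyte markers. Of the markers of cumulus, sperm and fibroblasts, 6 were tested and limma called none, with 1, Col1a1, higher at an unadjusted p under 0.05.

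Fewer interval probes than other probes changed with the loss of P150, and more of those that changed rose than fell. The excess of rises was not seen in all fits: one on just the probes above background on all 8 arrays called 401 of 3197 members, against 22.6% of all probes in it, with 203 rises and 198 falls (50.6% rises). When fitted with all tested probes, 56.0% of the called members of this set had risen, against 38.1% of all its called probes. Of the 5664 members, 439 differed between P150KD and siControl at a limma adjusted p under 0.05 over all tested probes, 268 higher and 171 lower. This is 7.75% of the members, against 13.9% of all tested probes: 4.73% against 6.28% for rises, and 3.02% against 7.66% for falls. Of the called members 61.0% had risen, against 45.1% of all called probes. Among called members above background in both groups, 216 had risen and 159 had fallen (57.6% rises). Of the 439, 64 were above background in a single group; their log2 values, here and in ranges below, are fitted values, and their folds are known just as lower bounds. Over the other 375 the median log2 fold change was 1.85 for rises and -1.13 for falls, values that the threshold itself helped to choose. Of these 375, 199 rises and 94 falls were at least 2-fold, and 94 rises and 30 falls at least 4-fold. The median over all members was -0.17, close to the -0.20 of all tested probes. The groups did not overlap for 963 members, or 17.0%, against 27.1% of all tested probes, and for 432 of the 439 called. The counts depended on single arrays, for members and for all tested probes. Without siControl replicate 1, 2 or 3 the calls numbered 189, 267 and 244, where 5.62%, 7.43% and 7.16% of all tested probes were called, and without P150KD replicate 4 they numbered 281 (9.43%). Rises numbered 143 without siControl replicate 1. Falls numbered 46, 82 and 57 without the 3 siControl replicates in turn, and 93, 94, 88 and 109 without P150KD replicates 1, 3, 4 and 5. Of the 439, 107 rises and 30 falls kept their call in all 8 fits that left out 1 array.

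**Figure D1:**
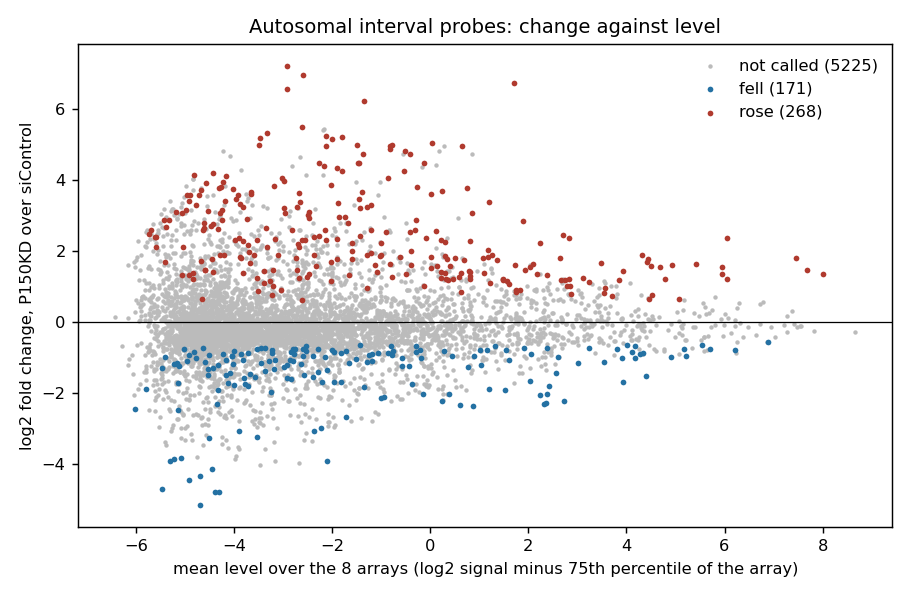
Log2 fold change of P150KD over siControl (vertical) against the mean level over the 8 arrays (horizontal, log2 units relative to the array's 75th percentile), 1 point for each of the 5664 autosomal interval probes. The 268 risen probes (red) reach 7.20, a fitted value with no control above background, and the 171 fallen probes (blue) reach -5.14.

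How the arrays were scaled and laid out changed these counts. Scaling to 15 housekeeping probes, all of which were lower in P150KD (mean log2 fold change -0.76), moved the median of all tested probes to 0.56 and that of the members to 0.59. It gave 1005 rises and 31 falls, 97.0% of the calls being rises, against 61.0% with the 75th percentile; 23.0% of all tested probes were called in that fit. The housekeeping scaling shifts all probes of an array alike, so the gap between the members' median and that of all tested probes could not change. All arrays lay on 1 slide, whose first column held the 3 siControl arrays and P150KD replicate 1, and whose other column held P150KD replicates 2 to 5. With the column as a block the test rests on P150KD replicate 1 against the controls, with the spread of all arrays. It called 101 members, where 2.35% of all tested probes were called; 92 were rises (1.46% of all tested probes rose) and 9 were falls (0.893% fell). Within the first column alone, where P150KD replicate 1 is assumed to vary like the controls, 13 members were called against 0.478% of all tested probes, 12 as rises (0.402%) and 1 as a fall (0.0758%). Of the 439 members, 78 of the rises and 6 of the falls kept their call with the block.

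Interval probes were dim. Their median level was -3.24, against -0.78 for all tested probes and 0.58 for the 18107 probes of protein-coding genes, of which 16.2% were called (1147 rises and 1783 falls). The 360 tested probes of genes that RefSeq lists as long noncoding RNAs had a median level of -2.49. Of these probes 26 rose (7.22%) and 10 fell (2.78%), against 6.28% and 7.66% of all tested probes. When all tested probes were divided by mean level into 4 classes of equal size, 2548 members were in the dimmest class and 265 in the brightest. In the dimmest class 2.75% of the members rose and 2.20% fell, against 3.83% and 2.64% of the other probes. In the brightest class 12.5% of the members rose and 7.92% fell, against 5.89% and 16.0% of the other probes. The 33 rises of the brightest class came from 24 of its 148 intervals (16.2%) and the 21 falls from 13 (8.78%). These shares are given as a description, with no test between classes.

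**Figure D2:**
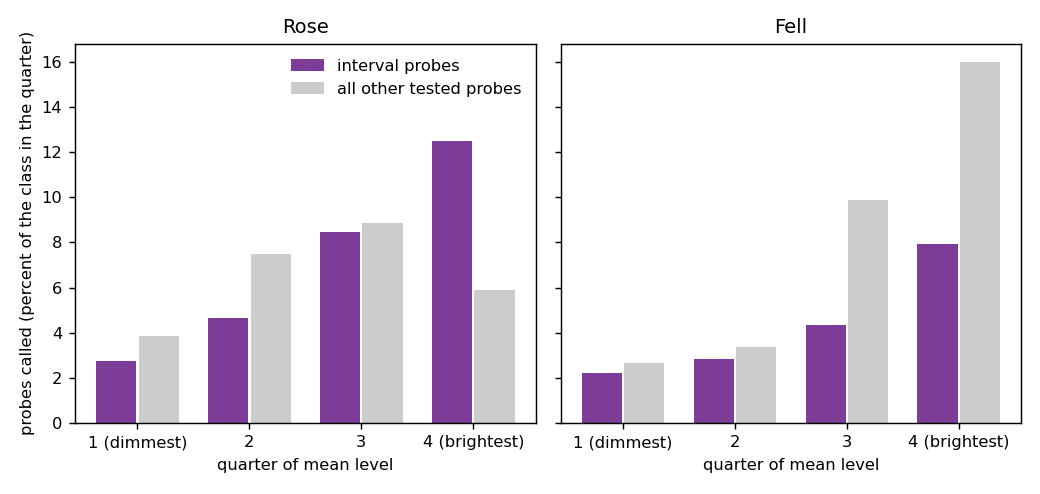
Share of probes called in each of 4 classes of mean level (bars, percent of the probes of that kind in the class), for rises (left) and falls (right), in interval probes (purple) and all other tested probes (grey). In the brightest class 12.5% of interval probes rose, against 5.89% of the others, and 7.92% fell, against 16.0%.

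The rule for members used the signal of both groups, so a probe above background in a single group passed through that group alone. Of the 15617 autosomal interval probes, 6460 were above background on no array, 2450 on 1 array and 1043 on 2. The probes just outside the rule, on 2 arrays, had a median level of -5.73, and the 583 just inside it, on 3 arrays, a median of -5.21. On all 8 arrays 3197 members were above background, of which 284 were called; this is 8.88%, against 16.1% of all probes so detected. The 159 rises stand against 6.14% and the 125 falls against 9.97% of those probes. A further 204 members were above background on P150KD arrays only, 52 of them called, and 26 on siControl arrays only, 12 of them called. With 5 arrays against 3, the rule could let in more of the first kind, and no weight is put on these counts.

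Calls were spread over all 19 autosomes, unevenly. By probe, chromosome 1 had the largest share of rises, 41 of 451 tested probes (9.09%), followed by chromosome 13 with 28 of 319 (8.78%). By interval chromosome 13 was the higher, with a rise in 16 of 131 intervals (12.2%), against 19 of 171 (11.1%) on chromosome 1. Many of these rises lay close together. On chromosome 1, runs of neighbouring intervals, defined below, held 14, 9 and 7 of the rises, in 4, 3 and 3 called intervals. On chromosome 13, a run of overlapping intervals held 9 rises in 4 called intervals. The smallest shares of probes that rose were on chromosome 14, with 4 of 261 (1.53%), and on chromosome 7, with 4 of 248 (1.61%). Falls were most frequent on chromosome 19, with 7 of 122 (5.74%), and on chromosome 7, with 13 of 248 (5.24%), and least frequent on chromosomes 11 and 14 (1.15% each). By interval, those with a fall were 6 of 52 on chromosome 19 (11.5%), 11 of 97 on chromosome 9 (11.3%) and 11 of 120 on chromosome 3 (9.17%), but 6 of 99 on chromosome 7 (6.06%), where 5 of the 13 falls were in 1 interval. Chromosome 7 therefore had more falls than rises, as did chromosomes 3 (15 falls, 6 rises), 4 (13 and 9), 9 (11 and 9) and 19 (7 and 4). In the fit blocked on slide column, chromosome 12 had the most rises (14) and chromosome 1 had 13. By length, 2.95% of probes in intervals of up to 2 kb rose, 3.96% in those of 2 to 10 kb, 5.53% in those of 10 to 50 kb and 5.31% in longer ones. By suffix, 4.56% of F and 4.91% of R probes rose, and 3.18% and 2.86% fell.

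**Figure D3:**
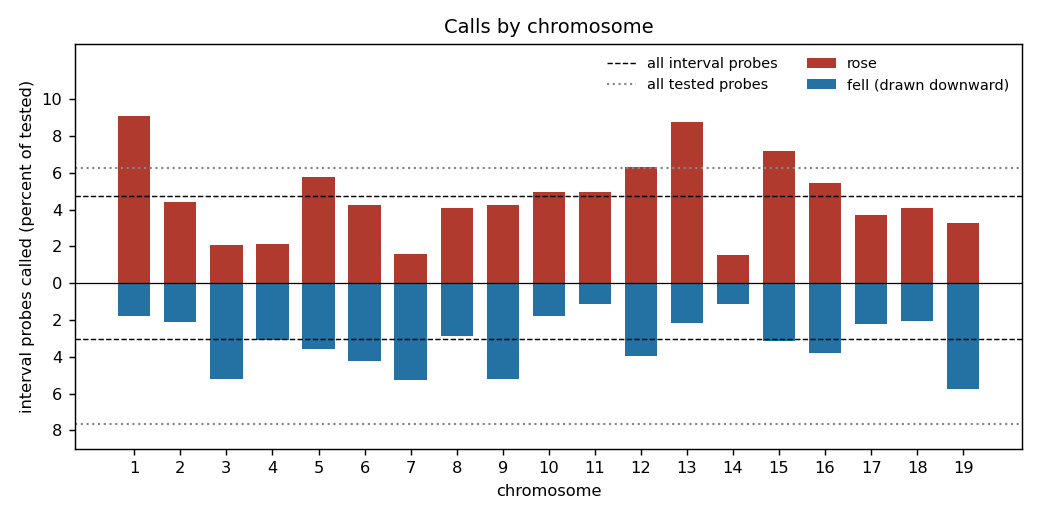
Share of tested interval probes that rose (red, upward) and fell (blue, drawn downward) on each autosome, in percent. Dashed lines mark all interval probes (4.73% and 3.02%) and dotted lines all tested probes (6.28% and 7.66%); chromosomes 1 and 13 stand highest among the rises.

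Probes of the same interval and suffix tended to move together, and F and R probes of an interval much less so. Over 5670 probe pairs of the same interval and suffix, the log2 fold changes had a Pearson correlation of 0.68; over 3853 pairs of an F and an R probe it was 0.26. These pairs share arrays and intervals, and the values are descriptions. Among pairs of the same suffix, both probes rose in 148, both fell in 57 and they were called in opposite directions in 5. Among the F and R pairs, these counts were 59, 8 and 9. At the level of intervals, 161 had at least 1 rise, 128 at least 1 fall and 8 both. At least 3 probes rose in 31 intervals and fell in 11. All tested probes of an interval with 2 or more rose in 17 intervals and fell in 4, whereas 150 of the 233 such intervals with any call had a single called probe.

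**Figure D4:**
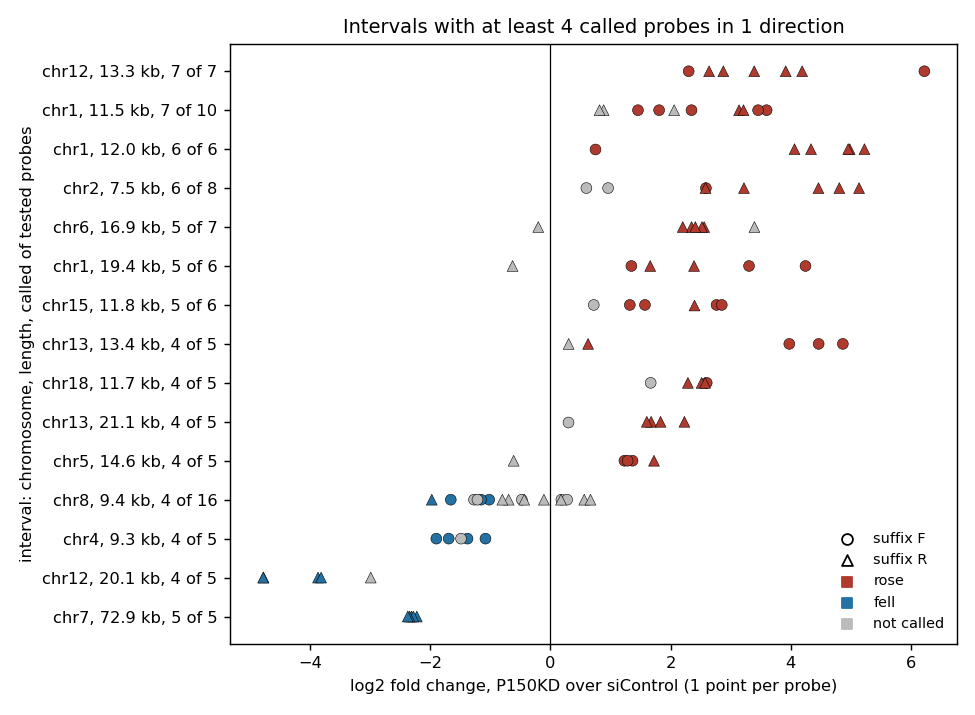
Log2 fold change of every tested probe (1 point each) in the 15 intervals with at least 4 called probes in 1 direction; circles are F probes, triangles R probes, red rose, blue fell, grey not called. Labels give chromosome, interval length in kb and called of tested probes. In the chr12 interval at the top, all 7 probes rose.

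The largest rise among members above background on at least 2 siControl and 3 P150KD arrays was at chr12:88216447-88224965. Its R probe had levels of -1.18, -1.78 and -4.51 on the siControl arrays and 4.16, 4.07, 4.23, 4.59 and 4.09 on the P150KD arrays, a log2 fold change of 6.72 ± 0.69 (SE; adjusted p = 0.00265). The 5 P150KD arrays lay close together, far above all controls, of which replicate 3 was the lowest. The log2 fold change was 5.71 without siControl replicate 3 and 7.37 without replicate 1, and the adjusted p did not pass 0.00967 in any of the 8 fits that left out 1 array; in the fit blocked on slide column it was 0.046. This was 1 of 4 tested probes of the interval: the other 3 were not called, with log2 fold changes of -0.57 to -0.20.

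At chr2:27394711-27402186, 6 of 8 tested probes rose, all 5 R probes and 1 of 3 F probes. The R probe with the smallest adjusted p had levels of -3.43, -4.07 and -3.06 in siControl and 2.03, 1.03, 1.69, 1.07 and 0.63 in P150KD, a change of 4.81 ± 0.38 (adjusted p = 0.00121, and 0.0151 when blocking on slide column). Another R probe changed by 5.14 ± 0.71 (adjusted p = 0.00592), and by 4.28 without siControl replicate 3; with the block its adjusted p was 0.0595. The groups did not overlap for any of the 6. The called F probe was above background on no control and at least 2.81-fold higher; it lost its call without siControl replicate 3 (adjusted p = 0.0516), and the 2 uncalled F probes were at 0.60 and 0.96.

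At chr17:39960567-39992817, 2 F probes rose, by 5.03 ± 0.81 (adjusted p = 0.00997) and 4.96 ± 0.81 (0.0105). The second of them stood at -1.51, -2.73 and -3.09 in siControl and at 2.73, 1.55, 1.13, 4.71 and 2.45 in P150KD. P150KD replicate 4 was the highest on both, and every P150KD array was above every control. Blocking on slide column gave adjusted p-values of 0.116 and 0.118. The other 7 tested probes of the interval were not called, at -0.54 to 0.65.

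At chr9:75338012-75345341, all 3 tested probes rose, by 3.61 to 3.81. The most precise of them had levels of -2.22, -2.54 and -1.96 in siControl and 0.81, 1.92, 1.45, 1.19 and 1.49 in P150KD (3.61 ± 0.28, adjusted p = 0.00108, and 0.0245 with the block). The P150KD arrays all lay well above the controls, and the calls of all 3 probes held in each fit that left out 1 array and with the block. At chr6:37732925-37784092 an F probe went from -2.48, -3.50 and -3.60 to 0.65, 1.03, 0.67, 1.42 and 1.52 (4.25 ± 0.35, adjusted p = 0.00141), and an R probe that no siControl array detected was at least 2.55-fold higher (adjusted p = 0.00161). Another F probe rose by 2.28 (adjusted p = 0.0265) and kept its call in 4 of the 8 fits without 1 array. The 3 uncalled probes of that interval had log2 fold changes of -0.73 to -0.29.

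Rises did not always cover an interval. At chr13:53100475-53113850, 3 F probes rose by 3.98 to 4.87, and of 2 R probes 1 rose by 0.63, a call that ended in all 8 fits without 1 array (0.0599 to 0.127), and 1 was at 0.30. The F probe with the largest change had levels of -1.90, -2.72 and -7.0 in siControl and -0.03, 1.46, 1.83, 0.74 and 0.96 in P150KD (4.87 ± 1.11, adjusted p = 0.0283). Control replicate 3 was far below the other controls: without it the change was 3.30 (adjusted p = 0.0223), and without replicate 1 it was 5.85 (0.036). The call ended without siControl replicate 2 or P150KD replicate 2, 3, 4 or 5 (0.054, 0.0534, 0.0592, 0.0583 and 0.0564). With the block its adjusted p was 0.335. Without siControl replicate 3 the other F probes went from 3.98 to 3.22 and from 4.46 to 3.33, still called. With the block 0 of the 4 rises of this interval were called (0.158 to 0.446). At chr6:108556270-108573161, 5 of 7 tested probes, all R, rose by 2.20 to 2.56, while the other 2, at -0.20 (adjusted p = 0.574) and 3.40 (0.215), were not called. Of the 5, 3 kept their call in every fit without 1 array, and 3 with the block; the calls at 2.20 and 2.41 ended without any siControl replicate or without P150KD replicate 2, 4 or 5 (0.0547 to 0.109).

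**Figure D5:**
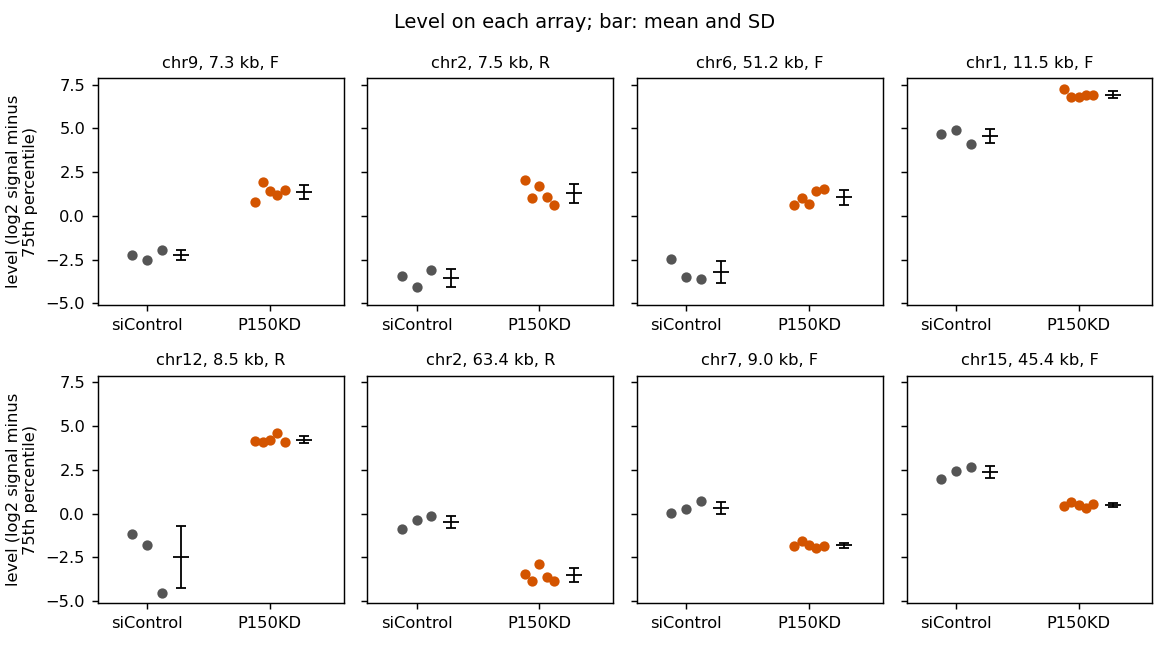
Level on each array (points; log2 signal minus the array's 75th percentile), siControl (grey, n = 3) and P150KD (orange, n = 5), with mean and SD beside them, for the 5 rises and 3 falls of smallest adjusted p among named probes above background on all 8 arrays, 1 probe an interval. The groups do not overlap in any panel; the chr12 probe changes by 6.72 and the chr9 probe by 3.61.

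Some members were above background on no siControl array, and for these a fold is a lower bound. It sets the P150KD mean against the controls' mean of the probe's own signal or, where higher, that array's dimmest signal flagged well above background. At chr1:84947500-85045150, 2 F probes were at least 35.4-fold and at least 30.3-fold higher in P150KD (adjusted p = 0.00461 and 0.00281). The first had measured levels of -7.21, -7.42 and -6.20 in siControl (mean -6.94) and 1.77, 1.07, -0.16, -2.26 and -0.44 in P150KD (mean 0.00). The P150KD arrays spread over 4 log2 units with replicate 1 highest and replicate 4 lowest, yet all were above the controls, and the adjusted p with the block was 0.027. An R probe of chr1:139713316-139913366 was at least 25.6-fold higher (means -7.02 and -0.47, adjusted p = 0.00161, and 0.0313 with the block), as 1 of 3 rises among 9 tested probes. An R probe of chr11:48603904-48611829 was at least 14.1-fold higher (means -6.66 and -1.34, adjusted p = 0.0203); its call ended without siControl replicate 1 or 2 (0.0766 and 0.0709), its fitted log2 value went from 5.32 to 5.92 without siControl replicate 3 and to 5.93 without P150KD replicate 4, and with the block the adjusted p was 0.204. At chr11:48603904-48611829 the other 4 tested probes were not called, at 0.07 to 3.09. The smallest adjusted p of all members, 0.000302, was at an F probe of chr19:53517903-53540753, at -7.35, -7.54 and -7.30 in siControl and -3.35, -3.36, -3.16, -2.78 and -3.73 in P150KD, which makes it at least 3.66-fold higher; the other 4 tested probes there were not called (-0.68 to 1.58).

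Called intervals also lay close together on some chromosomes. Runs were counted where at least 3 called intervals followed each other with gaps of at most 100 kb; there were 8, with rises in each and no falls in any. Overlapping intervals were counted apart, so a run can hold fewer separate stretches than intervals. The runs were found from the calls and are a description. The 14 rises of the largest run, chr1:84947500-85185800, came from 4 intervals among 27 tested probes, of which 26 were higher in P150KD; the log2 fold changes of the rises ran from 1.41 to 7.20. Its interval chr1:85156338-85167730 lies inside another, chr1:85150625-85185800. The run included very bright probes: an F probe of chr1:85117750-85129200 stood at 6.84, 6.84 and 6.64 in siControl and at 8.49, 8.28, 8.11, 8.28 and 7.99 in P150KD (1.46 ± 0.18, adjusted p = 0.00427, and 0.039 with the block). Another went from 4.68, 4.93 and 4.13 to 7.27, 6.81, 6.78, 6.89 and 6.90 (2.35 ± 0.23, adjusted p = 0.00231). On both, all P150KD arrays were above all controls, and replicate 1 was the highest. All 5 F and 2 of 5 R probes of this interval rose. Of the 14 rises, 5 were above background on no control. In every fit without 1 array 9 of the 14 kept their call, as did 9 with the block. Without siControl replicate 1, 2 or 3 the calls of all 3 probes of chr1:85156338-85167730 ended (0.054 to 0.0994), without replicate 1 or 2 that of chr1:85150625-85185800 (0.0512 and 0.0506), and an F probe of chr1:85117750-85129200 at 3.60 kept its call just without siControl replicate 3, at 4.75.

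On chromosome 12, the run chr12:89448550-89533975 had 11 rises among 16 tested probes, from 2.30 to 6.22. All 7 probes of its interval chr12:89448550-89461843 rose, 2 F and 5 R. The F probe detected on all arrays went from -1.65, -0.74 and -1.26 to 1.63, 0.57, 0.78, 1.38 and 1.05 (2.30 ± 0.32, adjusted p = 0.006, and 0.0403 with the block). Its other F probe changed by 6.22 ± 0.86 (adjusted p = 0.006, and 0.0784 with the block), by 5.32 without siControl replicate 1 and by 7.46 without replicate 2. The R probe with the smallest adjusted p (0.00104) was above background on no control and at least 4.88-fold higher. An F probe of chr12:89479525-89503525 changed by 4.05 (adjusted p = 0.0117), and by 3.31 without siControl replicate 1. All 11 rises of the run kept their call in each fit without 1 array, and 8 with the block. Of the 11, 7 were above background on no control and 1 was above background on all 8 arrays. For those 7 the folds are lower bounds, from 1.26-fold to 10.3-fold, and their log2 values are fitted values.

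On chromosome 13, the run chr13:94182877-94203935 had 9 rises among 24 tested probes, of which 20 were higher in P150KD. The 15 uncalled probes had log2 fold changes of -0.78 to 5.43. The run consists of called intervals that lie within the longest of them, so its 9 rises are not separate observations. A 548-base interval within it, chr13:94200051-94200598, had 3 R probes, and all rose, by 1.56 to 1.90. The first of these went from 4.01, 3.65 and 3.50 to 5.59, 5.4, 5.06, 5.14 and 5.20 (1.56 ± 0.20, adjusted p = 0.0052). The 3 probes kept their call in every fit without 1 array and with the block (0.0403 to 0.0445). An R probe of the nested chr13:94182877-94203852, above background on no control, was at least 12.2-fold higher (adjusted p = 0.0444) but kept its call in just 1 of the 8 fits without 1 array, that without P150KD replicate 3 (fitted log2 value 6.18, against 5.17 with all arrays); without the other arrays its adjusted p was 0.071 to 0.124. The call of an R probe of chr13:94182877-94203935 at 2.23 ended without siControl replicate 1 (0.0607). All 9 rises of the run were on R probes.

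The run chr1:175653557-175717250 had 9 rises among 10 tested probes, from 0.75 to 5.23, and was the least even between arrays. Of its 3 called intervals, chr1:175653557-175671940 and chr1:175654606-175672031 overlap almost wholly. Counted as 1, they would leave the run short of 3 intervals. An R probe of chr1:175705225-175717250 stood at -1.97, -2.56 and -7.19 in siControl and at -0.62, 1.70, 0.20, 1.58 and 2.52 in P150KD (4.98 ± 1.28, adjusted p = 0.0415). Control replicate 3 was the lowest and P150KD replicate 1 the lowest of its group, and the groups did not overlap. This call ended in all 8 fits without 1 array (0.0525 to 0.085), with 3.34 without siControl replicate 3, 5.95 without replicate 1 and 5.66 without replicate 2. Leaving out siControl replicate 3 ended 7 other calls of the run (0.0514 to 0.0742). Of the 9 rises of the run 2 were above background on no control, and 1 kept its call in every such fit. Blocking on slide column gave adjusted p-values of 0.163 to 0.462.

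Falls were fewer than rises. Of the 171 fallen probes, 70 lay in intervals with at least 2 falls, against 159 of the 268 risen probes. All tested probes fell at chr7:128341797-128414692, which had 5, all R; they fell by 2.22 to 2.37 on the log2 scale. One of them went from 3.81, 3.51 and 3.94 in siControl to 1.79, 1.86, 1.87, 0.58 and 1.12 in P150KD (-2.31 ± 0.35, adjusted p = 0.00776). P150KD replicate 4 was the lowest on all 5 probes, and the groups did not overlap. A probe at -2.34 (adjusted p = 0.0156) lost its call without siControl replicate 1, 2 or 3 (0.0572, 0.0526 and 0.0513), while the other 4 kept theirs; with the block all 5 remained negative (-1.96 to -1.48) at adjusted p-values of 0.133 to 0.268.

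At chr2:173421598-173485043, 2 R probes fell. One had levels of -0.86, -0.39 and -0.15 in siControl and -3.43, -3.86, -2.88, -3.63 and -3.84 in P150KD (-3.06 ± 0.29, adjusted p = 0.00201), and the other changed by -2.98 ± 0.30 (adjusted p = 0.00245). Both kept their call with the block (0.0408 and 0.0399) and without any single array. The same held for an F probe of chr7:112934153-112943178, which went from 0.04, 0.24 and 0.71 to -1.87, -1.58, -1.78, -1.96 and -1.84 (-2.14 ± 0.20, adjusted p = 0.00205, and 0.0393 with the block). It held too for an F probe of chr15:79764481-79809909, which went from 1.98, 2.46 and 2.66 to 0.44, 0.64, 0.50, 0.31 and 0.56 (-1.88 ± 0.20, adjusted p = 0.00289, and 0.0455 with the block). For both F probes the P150KD arrays lay within a narrower range than the controls, which stood above all of them. In that last interval 9 probes were tested, 2 fell and 1 F probe rose, by 1.77; the other fall, at -1.24, kept its call in 1 of the 8 fits without 1 array and that rise in 6. At chr7:112934153-112943178 the other 5 tested probes were not called, at -0.65 to 0.43.

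Some larger falls lost their call when arrays were left out. Among called members above background on at least 2 siControl and 3 P150KD arrays, with groups that did not overlap, the largest fall was at an R probe of chr12:85252300-85253597. It stood at -0.71, 0.45 and 1.28 in siControl and at -2.62, -5.07, -4.87, -2.88 and -2.45 in P150KD (-3.92 ± 0.79, adjusted p = 0.0197); its call ended without siControl replicate 2 or 3 (0.064 and 0.0708), and with the block its adjusted p was 0.286. An F probe of chr15:96984422-97000322 changed by -3.24 ± 0.81 (adjusted p = 0.0385), by -2.65 without P150KD replicate 2, and kept its call in 2 of the 8 fits without 1 array; in the others, those without the siControl replicates and P150KD replicates 1, 3 and 5, the adjusted p ran up to 0.124, and with the block it was 0.416. An F probe of chr15:76193801-76194225 changed by -2.66 ± 0.71 (adjusted p = 0.0461) and kept its call just without P150KD replicate 5; with the block it was at 0.209. In all 3 probes every P150KD array was below every control. At chr15:96984422-97000322 the other 4 tested probes were not called, at -1.90 to 0.10. At chr15:76193801-76194225 another F probe was called, at -1.83, and 1 at -1.84 was not. At chr12:117623500-117643575, where P150KD replicate 5 stood above the other P150KD arrays on every probe, 4 of 5 tested probes fell, with log2 fold changes of -4.78 to -3.81. Each of these kept its call just without that replicate (-4.51 to -5.65), and the block left none (0.176 to 0.257). At chr4:40720362-40729687, 4 of 5 probes fell, 3 by 1.08 to 1.69 on the log2 scale and 1, above background on no P150KD array, to a level at least 1.42-fold lower. None of the 4 kept its call in all 8 fits or with the block (0.118 to 0.456).

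Among falls to below background, an F probe of chr3:117995784-117996372 was at least 6.0-fold lower in P150KD (means -2.54 and -7.23, adjusted p = 0.0223). Its controls were -4.59, -3.39 and 0.37, so that its fitted log2 value of -4.69 became -3.24 without siControl replicate 3 and -5.72 without replicate 1. The call ended without siControl replicate 2 (0.0504) or P150KD replicate 4 (0.0505). F probes of chr7:16584852-16657252 and chr19:5841103-5845579 and an R probe of chr6:131263850-131314850 were at least 2.07-fold, 1.70-fold and 1.80-fold lower (adjusted p = 0.0326, 0.00871 and 0.0184). With the block none of these 4 falls passed limma's threshold (0.12 to 0.439). Of the last 3, the chr19 probe alone kept its call without each single array. The chr6 call ended without siControl replicate 1 or 3 (0.076 and 0.0569), and the chr7 call without siControl replicates 1 to 3 (0.105, 0.101 and 0.0716) or P150KD replicates 2 and 3 (0.0566 and 0.0638). No other tested probe of these 3 intervals was called: 11 on chr7 (-1.11 to 1.24), 1 on chr19 (-0.15) and 3 on chr6 (-0.82 to -0.03).

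F and R probes were both tested in 581 intervals. Both suffixes rose in 15 of these and fell in 4, 71 had a rise on 1 suffix alone and 68 a fall on 1 suffix alone. At chr8:72663625-72673010, F and R probes fell together, by -1.66 ± 0.23 (adjusted p = 0.00615) and -1.97 ± 0.29 (0.00708), as 2 of 4 falls among 16 tested probes; none of the 4 passed with the block (0.0686 to 0.113). In 4 intervals the suffixes moved in opposite directions. At chr5:92548501-92566401 the F probe went from 0.88, 1.03 and 0.91 to 2.29, 1.40, 2.17, 2.19 and 2.04 (1.07 ± 0.23, adjusted p = 0.0248), and the R probe from -3.46, -1.93 and -2.69 to -4.26, -4.42, -4.22, -4.67 and -4.58 (-1.74 ± 0.34, adjusted p = 0.0172). Neither probe had overlapping groups. The F call ended without siControl replicates 1 to 3 (0.089, 0.0675 and 0.0742) or P150KD replicates 1, 3 and 4 (0.0536, 0.0545 and 0.0561), and the R call without siControl replicate 3 (0.0561).

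The other opposite pairs were of the same kind. At chr5:106982442-107045717 an F probe fell by 1.57 on the log2 scale (adjusted p = 0.00671) while an R probe rose by 5.48 (0.0116), or 6.74 without siControl replicate 1 and 4.76 without replicate 2; both kept their call without each single array. Another F probe there fell by 1.59 (0.0116), and another R probe, above background on no control, was at least 3.41-fold higher (0.0359), a call kept with the block (0.0393) and in 3 of the 8 fits without 1 array. At chr5:35975265-35982561 an F probe was higher by 0.81 (adjusted p = 0.0486), a call kept in 1 of the 8 fits without 1 array, and 3 R probes fell, the largest by 1.79 (0.0132; 0.0555 without siControl replicate 1). At chr8:37582187-37621987 an F probe that no control detected was at least 2.09-fold higher (0.018; 0.0618 and 0.0581 without siControl replicates 2 and 3), and an R probe fell by 1.32 (0.0109; 0.0504 without siControl replicate 1). Of the other called probes of these 4 intervals, none passed limma's threshold when blocking on slide column (0.0799 to 0.44).

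Of the 4 brightest members 2 rose and 2 were not called. The brightest, an R probe of chr11:22681800-22707775, stood at 8.78, 8.75 and 9.02 in siControl and at 8.74, 8.76, 8.61, 8.50 and 8.19 in P150KD (-0.29 ± 0.19, adjusted p = 0.349), with overlapping groups. An R probe of chr2:167085700-167117795 was at means of 7.97 and 7.73 (-0.25 ± 0.21, adjusted p = 0.466). An F probe of chr1:87343550-87362900 rose instead, from 7.24, 7.28 and 7.0 to 8.76, 8.49, 8.48, 8.58 and 8.29 (1.35 ± 0.17, adjusted p = 0.00489, and 0.0441 with the block), with all P150KD arrays above all controls. The remaining one of the 4 is the F probe of chr1:85117750-85129200 described above.

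Lists of named genes were counted in the same fit, and whether they have any link to the intervals was not tested. Of 58 named long noncoding RNA genes in a list drawn up for this comparison, 28 had a probe and 23 were tested. Snhg1, a host gene of small nucleolar RNAs, rose (0.69 ± 0.18, adjusted p = 0.0413, and 0.22 with the block), and limma called no other, with 3 higher and 1 lower at an unadjusted p under 0.05. The list's median was 0.19, against -0.20 for all tested probes. Scaling to the housekeeping probes gave 9 rises, and scaling to the array median none. Pvt1 was at 1.57 (adjusted p = 0.0505) and Kcnq1ot1, the imprinted transcript antisense to Kcnq1, at 3.66 ± 1.30 (0.104), with controls of -0.96, -3.50 and -6.95. In the other direction, Dleu2 was at -1.99 ± 0.78 (limma adjusted p = 0.131), Morrbid at -3.20 (0.165) and Meg3 at -2.10 (0.177). Of the 23 tested, 14 were higher and 9 lower in P150KD.

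Of 25 genes for the nuclear exosome and its adaptors, all were tested and 8 fell, where 7.66% of all tested probes fell, a direction that turned when arrays were scaled to the housekeeping probes (0 falls). They included the helicase Mtrex (-1.22 ± 0.18, adjusted p = 0.00785), the core subunits Exosc6 (-0.73), Exosc3 (-0.67), Exosc1 (-1.24) and Exosc8 (-1.01), the poly(A) polymerase Tent4a (-1.33), and Rbm7 (-1.05) and Zcchc8 (-1.22), which with Mtrex form the NEXT adaptor. Mtrex went from 6.90, 6.77 and 7.14 to 5.89, 5.46, 5.80, 5.85 and 5.57, without overlap, and limma called no rise in the list, nor one at an unadjusted p under 0.05. Most genes of the list had mean levels within the brightest class described above, where 16.0% of the probes other than interval probes fell. The median of the list was -0.46, but it was 0.30, with 2 rises and no fall, when arrays were scaled to the housekeeping probes; quantile normalization and scaling to the array median left 2 falls each. Blocking on slide column, 22 of the 25 were lower and limma called none. Of 14 tested Integrator subunits, which end noncoding transcription, limma called none, with 3 lower at an unadjusted p under 0.05. Among CAF-1 subunits, Chaf1b was lower (-0.90 ± 0.18, adjusted p = 0.0188, and 0.0919 with the block) and Rbbp4 was at 0.38 ± 0.32 (adjusted p = 0.449).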

How the data were processed

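Single-colour arrays were scanned by the authors and quantified, per the file headers and the submitters' processing notes, in Agilent Feature Extraction 10.5.1; the headers name mm9. The deposited processed signal is a background-subtracted, spatially detrended intensity without scaling between arrays. Deposited median spot and local background signals, used for normexp, are raw intensity, and other deposited columns are flags of 0 or 1. The deposited series table holds log2 values of the same arrays, centred on the median of each probe, with array scaling not given in the sources used here, and served as an alternative.

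From these, spots flagged non-uniform or outlying were dropped where another spot of the probe remained, spots of a probe were averaged on the log2 scale, and each array was shifted to put its 75th percentile at 0. Probes well above background on at least 3 of 8 arrays were tested between groups, without covariates and two-sided, by limma's lmFit and eBayes (version 3.58.1, R 4.3.3; Benjamini-Hochberg over all 30348 tested probes, threshold 0.05). Changes are called on that fit; fold bounds apply where no array of a group was above background. The alternatives, given in the closing section, were normexp with an offset of 50, quantile normalization, other scalings, the series table, other filters, blocks, array weights (statmod 1.5.0), trend and robust eBayes, single arrays left out, and 1 probe or the mean of the probes per interval. The procedure was tested on simulated data. Tables and plots used Python 3.11.15, pandas 2.3.3, numpy 2.4.6 and matplotlib 3.10.9.

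The members, lists and naming rule were chosen with earlier results of these data known. Probes are named by rule: the largest measured rises and falls, the largest lower bounds, the smallest adjusted p, the brightest members, intervals with calls on both suffixes, and the 4 runs with most calls. Some other probes of these intervals and of intervals with at least 4 called probes are also described, as are all called list members; they were chosen after their values were seen. RefSeq accessions paired 27235 probes with 20660 symbols. Nearest genes and interval sequences were not analysed here.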

Additional observations from a re-analysis of the deposited data

Results flagged for a closer look

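In 6 of the 82 named probes, 1 P150KD array stood apart from the other 4 by a gap larger than Dixon's 95% limit for 5 arrays. Chance gives such a gap in about 1 group in 20. P150KD replicate 1 was high, at 7.27 with the next at 6.90, on an F probe of chr1:85117750-85129200. P150KD replicate 3 was low on 2 R probes of chr13:94182877-94203935, at -0.56 with the next at 0.12 and at -1.46 with the next at -0.63. P150KD replicate 2 was low on an R probe of chr1:85150625-85185800 (-3.44, next -1.14), on an F probe of chr5:92548501-92566401 (1.40, next 2.04) and on an F probe of chr19:5841103-5845579 (-5.90, next -5.58). All 6 arrays still lay on the called side of every control.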

How the results depend on the processing

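The number of members changed, 439 (268 higher, 171 lower), varied with the scaling, the blocks, the filter and the arrays used. Scaling to the housekeeping probes gave 1036 calls, 1005 higher and 31 lower, and moved the median log2 fold change from -0.17 to 0.59. The slide column as a block gave 101 (92 and 9), with a median of -0.03. Within the first slide column alone, chosen after seeing the data, 13 were called (12 and 1), with a median of -0.03. The replicate numbers are shared by the groups but do not pair the arrays: same-numbered arrays deviated from their group means with correlations of -0.014, -0.075 and -0.017. With the replicate block limma called 0 members, and 0 of all 30348 tested probes, with 793 members at an unadjusted p under 0.05. Scaling to the array median left 93 falls, and array weights gave 262. In these fits 9.84% and 19.4% of all tested probes were called in either direction. Taking 1 probe per interval gave 186 calls (109 higher, 77 lower) among 2186, where 15.9% of all values tested were called. The mean of the probes of an interval and suffix, added after seeing the data, gave 214 (119 and 95) among 2767, where 15.5% were called. Both fits had fewer values tested. Without the filter on dim probes the median was -0.01. A fit of probes above background on all 8 arrays gave 203 rises and 198 falls. Leaving out each array in turn gave 189 to 392 calls, 143 to 254 higher and 46 to 138 lower. In the same fits 5.62% to 12.4% of all tested probes were called. Of the 82 named probes, 80 were called, no called one reversed under any alternative run, 50 kept their call without each single array, and 46 lost it with the slide column as a block. Where a count moved, the cause was not tested. Dim signal limits what could be called: of the 15617 autosomal interval probes, 6460 were above background on no array.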
